A study of Mus musculus with 18 samples.

Results

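Transcripts that mark T cells and cytotoxic lymphocytes were followed through RNA of sorted intestinal phagocytes. The set comprised Gzma, Gzmb, Nkg7, Cd7, Cd3d, Cd3e, Cd3g, Klrd1, Lck and Thy1, taken through array probes annotated to 1 of these symbols alone. Of the 10 listed genes, 9 had such a probe, each with 1 probe, out of 22180 genes measured in this way; Lck, the kinase that starts signalling from the T cell receptor, had none and was not measured here. The genes were selected on GFP differences seen earlier in these data, in which Gzma had fallen in dendritic cells and Cd7, Nkg7 and Cd3d had stood lower in CD103 macrophages. Those contrasts are therefore described below without a test.

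The 18 Affymetrix arrays came from the small intestine of male and female VDTR mice, whose gut epithelium makes the receptor for diphtheria toxin joined to green fluorescent protein (GFP), under the villin promoter as far as the study is known. All mice, those of every group, had been given diphtheria toxin at 2 ng per kg by the intraperitoneal route and were killed 4 hours later, so no untreated group was available. Live CD45+ CD11c+ MHCII+ cells were sorted as CD103+ CD24+ (dendritic cells, DCs), as CD103+ CD11b+ CD64+ (called CD103 macrophages here) or as CD11b+ CD64+ (called CD11b macrophages), each as GFP-plus and GFP-minus cells, which made 6 groups of 3 arrays. GFP-plus phagocytes are those that hold epithelial material, as far as the study's design states it. No age was given, the labels name no lymphocyte marker used for exclusion, although most mouse T cells lack the MHCII that all gates required and the CD64 of the macrophage gates, and the labels do not say whether the 3 replicates came from separate mice; p-values then measure only the spread between these samples. A label "n value" of 4 has no stated meaning.

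T lymphocytes recognise antigen through a receptor whose signal is carried into the cell by the CD3 chains, and natural killer cells use activating and inhibitory surface receptors instead. Both kinds of cell can kill a target by releasing granules that hold granzymes, serine proteases that enter the target cell. The epithelium of the small intestine holds many intraepithelial lymphocytes, among them granzyme-bearing cells that also carry CD103, the integrin used to gate 2 of the 3 phagocyte populations. In RNA from bulk sorted cells, fewer cells of a type and less RNA per cell cannot be told apart.

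Each value is a log2 level relative to the median of the same probe across all 18 arrays. A value of 0 is the median array, no value shows whether a gene was detected, and levels of different genes cannot be compared. Groups are given as mean ± SD with n = 3 arrays.

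Among all members Gzma had the widest range of group means, from -1.57 to 3.57. Gzma encodes granzyme A and Gzmb granzyme B, and Nkg7 encodes a membrane protein of cytotoxic granules. The RefSeq windows of 250 bases before the transcript start of Gzma and Gzmb are shown because these genes moved most alike among the members. They are on build GRCm38.p6, printed 5′ to 3′ along the gene, with capitals for matches on either strand to TGTGGT (the core bound by RUNX factors), GGAAGT (an ETS core with flanks) and CAGGTG (an E-box).
Gzma chr13:113100982-113101231, minus strand: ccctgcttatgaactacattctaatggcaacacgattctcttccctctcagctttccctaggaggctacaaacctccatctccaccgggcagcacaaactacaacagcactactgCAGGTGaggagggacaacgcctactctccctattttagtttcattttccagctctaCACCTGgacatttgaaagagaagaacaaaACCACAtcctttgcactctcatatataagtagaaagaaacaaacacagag
Gzmb chr14:56262335-56262584, minus strand: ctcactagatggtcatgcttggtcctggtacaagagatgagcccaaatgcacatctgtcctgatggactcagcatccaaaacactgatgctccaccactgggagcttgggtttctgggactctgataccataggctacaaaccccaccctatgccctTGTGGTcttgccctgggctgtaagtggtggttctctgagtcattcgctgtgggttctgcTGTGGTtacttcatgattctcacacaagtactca
The Gzma window held TGTGGT as its reverse complement ACCACA and 2 E-box matches, and the Gzmb window held TGTGGT 2 times. Of 32851 windows of this length, 14% held TGTGGT, 17.2% CAGGTG and 19.7% GGAAGT, so each match is a common one. None of the 3 motifs shares its letters with another at a printed match. A match describes letters and not a bound site.

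Gzma was high in 3 groups and low in 3. In GFP-minus CD103 macrophages it read 2.88, 3.36 and 4.49 on replicates 1, 2 and 3 (3.57 ± 0.83). In GFP-minus DCs it read 1.41, 2.77 and 2.75 (2.31 ± 0.78), and in GFP-plus CD103 macrophages 0.72, 2.59 and 1.35 (1.55 ± 0.95). These 9 arrays all lay above the other 9. GFP-plus CD11b macrophages read -1.11, -0.72 and -0.84 (-0.89 ± 0.20), GFP-minus CD11b macrophages -1.15, -1.45 and -1.35 (-1.31 ± 0.15), and GFP-plus DCs -1.65, -1.56 and -1.49 (-1.57 ± 0.08). In the order of group means, only GFP-minus DCs and GFP-plus CD103 macrophages overlapped as neighbours.

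Gzmb followed the same order of group means as Gzma. GFP-minus CD103 macrophages read 1.42, 2.03 and 4.67 (2.71 ± 1.73), and GFP-minus DCs 1.59, 1.84 and 2.36 (1.93 ± 0.40). GFP-plus CD103 macrophages read -0.59, 1.59 and 0.70 (0.57 ± 1.09). The first 2 groups overlapped, and GFP-minus DCs stood just above the highest GFP-plus CD103 macrophage array. The remaining 3 groups were low and overlapped in that order. GFP-plus CD11b macrophages had a mean of -0.23 ± 0.39, GFP-minus CD11b macrophages of -0.53 ± 0.30 and GFP-plus DCs of -0.73 ± 0.05.

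Nkg7 was high in 1 group. GFP-minus CD103 macrophages read 1.38, 3.96 and 4.33 (3.22 ± 1.61), above every other array. The next group, GFP-plus CD103 macrophages, read 0.36, -0.05 and 0.76 (0.36 ± 0.41). In the other 4 groups the means lay between -0.26 and -0.10 and all neighbours overlapped. GFP-minus DCs, the group with the next highest Gzma and Gzmb, read -0.37, 0.03 and -0.02 for Nkg7. Their Nkg7 values overlapped those of GFP-plus DCs, which read -0.74, 0.11 and 0.02.

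**Figure D1:**
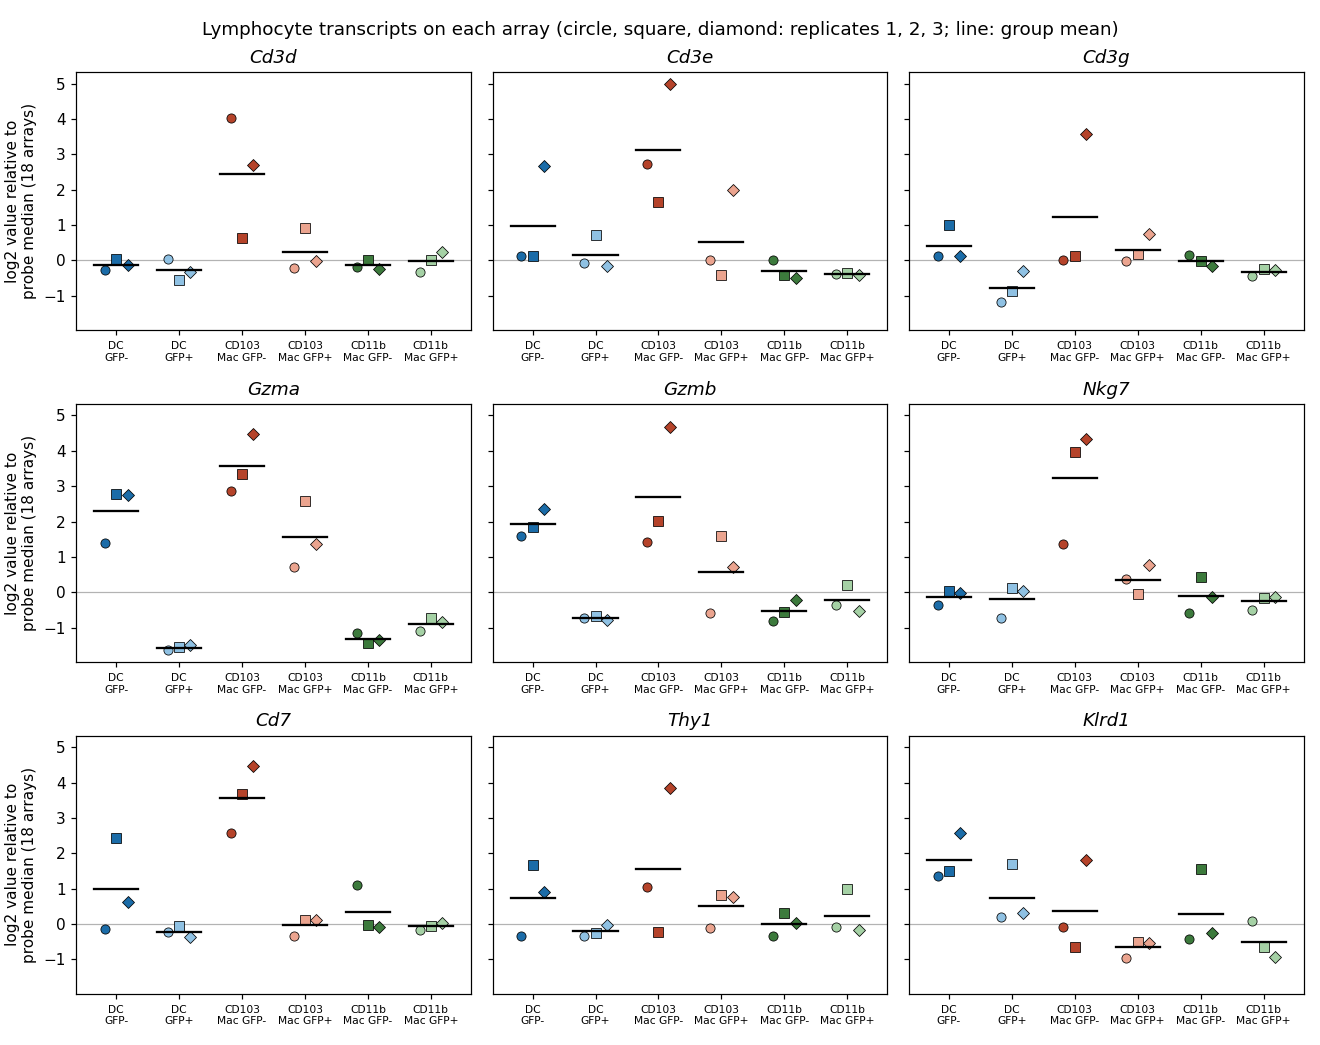
Log2 level relative to the probe's own median for each of the 9 measured lymphocyte transcripts (vertical axis) by group (horizontal axis); circles, squares and diamonds are replicates 1, 2 and 3, and lines are group means. Nkg7 and Cd7 stand apart in GFP-minus CD103 macrophages, whereas Gzma and Gzmb are high in GFP-minus DCs as well.

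The CD3 genes encode the invariant chains of the T cell receptor complex, delta (Cd3d), epsilon (Cd3e) and gamma (Cd3g). They lie side by side on chromosome 9 of GRCm38.p6, Cd3g at 44969572 to 44980431, Cd3d at 44981769 to 44987052 and Cd3e at 44998735 to 45009663, with Cd3d on the opposite strand to its neighbours. The windows of Cd3d and Cd3e are shown for this receptor complex, with capitals as above.
Cd3d chr9:44981536-44981785, plus strand: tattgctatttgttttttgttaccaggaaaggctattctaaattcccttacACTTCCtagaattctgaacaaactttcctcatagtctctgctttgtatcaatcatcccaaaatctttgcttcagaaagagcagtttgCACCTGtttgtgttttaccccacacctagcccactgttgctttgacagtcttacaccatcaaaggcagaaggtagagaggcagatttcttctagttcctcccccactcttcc
Cd3e chr9:45009612-45009861, minus strand: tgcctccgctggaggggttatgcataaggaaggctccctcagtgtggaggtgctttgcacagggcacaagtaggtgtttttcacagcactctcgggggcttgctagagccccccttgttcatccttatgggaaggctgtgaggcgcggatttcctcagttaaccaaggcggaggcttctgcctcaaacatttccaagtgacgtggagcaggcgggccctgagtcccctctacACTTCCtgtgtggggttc
Each held GGAAGT as its reverse complement ACTTCC, and neither held TGTGGT. A window ends at the transcript start that RefSeq's window table uses, and both genes as annotated begin further upstream, so 17 bases of the Cd3d window and 52 bases of the Cd3e window lie within the gene as given above, the Cd3e match among them. Of the 9 measured members, 6 had a window in the table.

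All 3 CD3 genes had their highest group mean in GFP-minus CD103 macrophages, with different arrays carrying it. Cd3e read 2.73, 1.66 and 5.0 there (3.13 ± 1.71), and Cd3d read 4.03, 0.62 and 2.71 (2.45 ± 1.72). Cd3g read 0.02, 0.13 and 3.57 (1.24 ± 2.02), so only replicate 3 was high for the gamma chain. Cd3d was highest on replicate 1, on which Cd3g read 0.02.

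Outside that group the CD3 readings were mostly near 0. Cd3d lay between -0.56 and 0.91 on the other 15 arrays. Cd3e reached 2.67 on replicate 3 of GFP-minus DCs and 1.99 on replicate 3 of GFP-plus CD103 macrophages, and at most 0.71 on the remaining arrays. For Cd3e this left the GFP-minus CD103 macrophage group overlapping GFP-minus DCs, which averaged 0.97 ± 1.47. Cd3g was lowest in GFP-plus DCs, at -1.18, -0.87 and -0.29 (-0.78 ± 0.45). The GFP-minus DCs read 0.11, 0.99 and 0.13 for Cd3g, above all 3 GFP-plus arrays.

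Cd7 and Thy1 encode surface proteins. Cd7 is carried by T and natural killer cells, and Thy1 by mouse T cells and also by innate lymphoid and stromal cells. Cd7 read 2.57, 3.68 and 4.48 in GFP-minus CD103 macrophages (3.58 ± 0.96), above all 15 other arrays. GFP-minus DCs followed with -0.13, 2.44 and 0.62 (0.98 ± 1.32), and GFP-minus CD11b macrophages with 1.09, -0.02 and -0.10 (0.33 ± 0.67). All 9 GFP-plus arrays lay between -0.37 and 0.12. Thy1 read 1.06, -0.22 and 3.86 in GFP-minus CD103 macrophages (1.57 ± 2.09) and -0.33, 1.67 and 0.90 in GFP-minus DCs (0.75 ± 1.01). Every neighbouring pair of groups overlapped for Thy1.

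Klrd1 encodes CD94, which pairs with NKG2 proteins to form receptors of natural killer cells and of some T cells. It was the member whose highest group was not the CD103 macrophages. GFP-minus DCs read 1.35, 1.51 and 2.58 (1.81 ± 0.67), and GFP-plus DCs 0.20, 1.69 and 0.30 (0.73 ± 0.84). The GFP-minus CD103 macrophages read -0.09, -0.66 and 1.82 (0.36 ± 1.30), and the GFP-minus CD11b macrophages -0.42, 1.55 and -0.24 (0.30 ± 1.09). One array in each of these macrophage groups reached the level of the DCs. The GFP-plus macrophage groups averaged -0.50 ± 0.53 (CD11b) and -0.66 ± 0.25 (CD103), and all neighbouring groups overlapped.

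**Figure D2:**
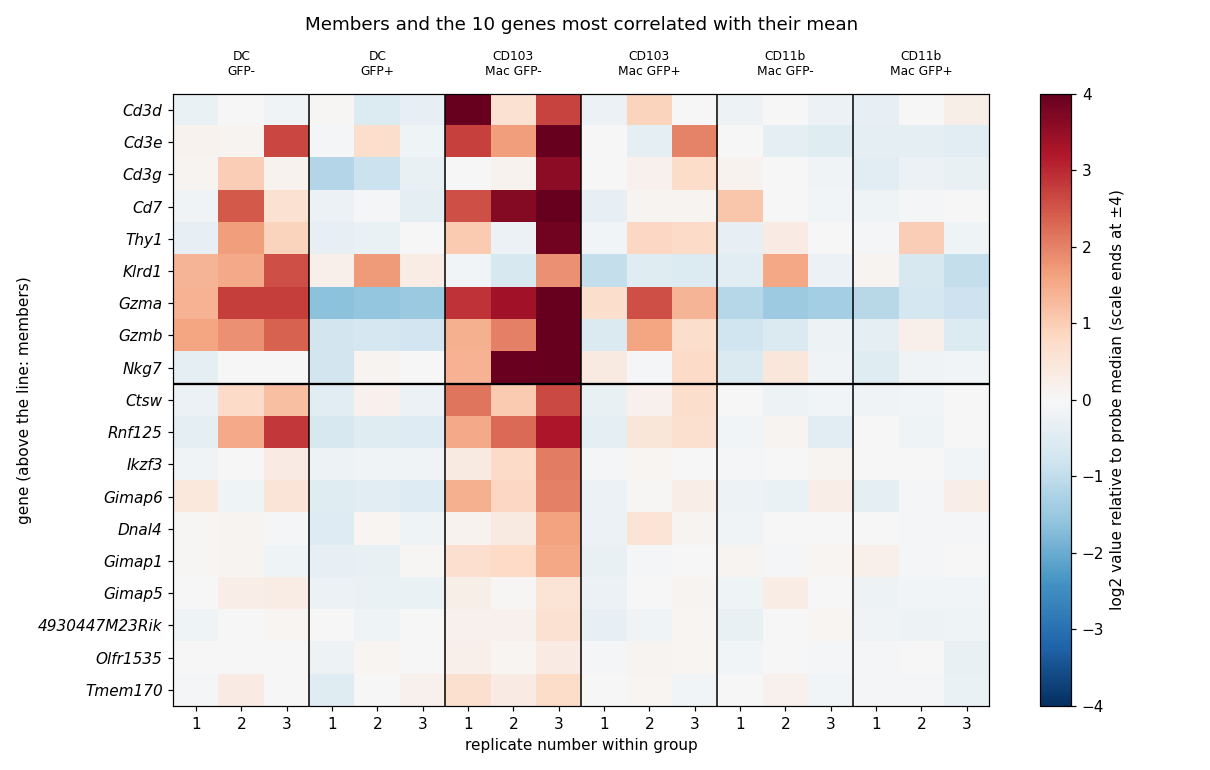
Log2 level relative to each gene's median (colour scale) for the 9 members and the genes most like their mean (rows) on each of the 18 arrays (columns, by group and replicate); the scale ends at 4 in either direction. Replicate 3 of GFP-minus CD103 macrophages is raised for all 9 members, and the CD11b macrophage arrays are low for Gzma.

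The mean of the 9 members summarised each array. It was 1.78, 1.62 and 3.88 in GFP-minus CD103 macrophages, 0.39, 1.27 and 1.32 in GFP-minus DCs, and -0.13, 0.58 and 0.66 in GFP-plus CD103 macrophages. It lay between -0.52 and -0.02 in the other 3 groups. Replicate 3 of GFP-minus CD103 macrophages had all 9 members above 1, against 7 on replicate 1 and 5 on replicate 2.

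The first question that the values allow is whether the 2 macrophage populations differed, averaged over both GFP gates. Gzma did. Its mean was 2.56 in CD103 macrophages and -1.10 in CD11b macrophages, a log2 difference of 3.67 ± 0.33 (SE, 6 arrays against 6; 95% interval 2.95 to 4.38). The limma adjusted p over all genes was 0.000287, all 6 CD103 macrophage arrays lay above all 6 CD11b macrophage arrays, as 1 of 9 members did beside 0.334% of all genes, and no other gene had a larger rise. The difference passed in 18 of 18 alternative settings, with values from 3.41 to 4.48 and adjusted p from 4.11e-05 to 0.00799. Within GFP-plus cells alone the Gzma difference was 2.44, and within GFP-minus cells 4.89.

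Gzma was the 1 of 9 members that passed in the main fit, where 0.0721% of all genes passed. The members' median difference was 1.64, beside -0.01 over all genes. Others were higher by similar amounts to one another without passing. Cd3e differed by 2.17 ± 0.58 (adjusted p = 0.401), Gzmb by 2.02 ± 0.47 (adjusted p = 0.25), Nkg7 by 1.97 ± 0.40 (adjusted p = 0.14), Cd7 by 1.64 ± 0.39 (adjusted p = 0.292) and Cd3d by 1.42 ± 0.41 (adjusted p = 0.538). Counting unadjusted p-values, 6 of 9 members were under 0.05, beside 5.51% of all genes. Klrd1 differed by -0.05 ± 0.46 (0.18 after quantile normalization). Nkg7 was under the threshold without replicate 1 of GFP-minus CD103 macrophages (2.43), and Cd3d without replicate 2 of that group (1.88).

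This population comparison averages over the GFP gates, but the GFP-minus CD103 macrophage arrays, whose high values selected Nkg7, Cd7 and Cd3d, are 3 of the 6 arrays on one side of it. For those 3 members its p-values, and the count of 6 of 9 that holds them, are therefore not independent of the selection and support nothing. Taking the gates apart, 6 of 9 members had GFP-minus CD103 macrophages wholly above GFP-minus CD11b macrophages, where 3.91% of all genes did. These were Cd3d, Cd3e, Cd7, Gzma, Gzmb and Nkg7. As Cd3d, Cd7 and Nkg7 were selected on the same GFP-minus CD103 macrophage arrays, this count also supports nothing. Between the GFP-plus groups 3 did (Gzma 2.44, Cd3g 0.62 and Nkg7 0.61), where 6.95% of all genes did. Only for Gzma was the GFP-plus difference above 1 among these 3.

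The transcript of the CD103 gate marker was uneven between arrays. Itgae, the gene for CD103, read 3.44, -0.43 and 2.66 in GFP-minus CD103 macrophages, beside 4.93 to 5.56 in DCs. In GFP-plus CD103 macrophages it read -0.44, -0.15 and 0.05, which overlapped the CD11b macrophages (-0.53 to -0.05), so the transcript behind the gate was not raised there. The population difference for Itgae was 1.19 ± 0.46 (limma adjusted p = 0.79). Cd24a, the gene for the other DC gate marker, read 1.65, -1.09 and 1.37 on the GFP-minus CD103 macrophage arrays. Replicate 2, with the lowest Itgae and Cd24a of that group, was also its lowest for Cd3d (0.62), Cd3e (1.66), Thy1 (-0.22) and Klrd1 (-0.66). For Nkg7 (3.96), Cd7 (3.68), Gzma (3.36), Gzmb (2.03) and Cd3g (0.13) it lay between the other 2 replicates. The part of the gate in these values was not tested.

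The second comparison set DCs against the mean of both macrophage populations. Klrd1 was higher in DCs by 1.40 ± 0.40 (SE, 6 arrays against 12; limma adjusted p = 0.0366), and 1 of 9 members passed where 10% of all genes passed. That count is near the share over all genes, so nothing is read from it for the members as a set. The call for Klrd1 was marginal. It held in 8 of 23 alternative settings, with values from 1.16 to 1.58 and adjusted p from 0.00706 to 0.111. Leaving out single arrays kept it in 5 of 18 cases, those without GFP-plus DC replicate 1 or 3, GFP-minus CD103 macrophage replicate 3, GFP-minus CD11b macrophage replicate 2 or GFP-plus CD11b macrophage replicate 1, and lost it in the other 13. It was also lost with array weights.

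No other member passed between DCs and macrophages; 3 of 9 had an unadjusted p under 0.05, beside 20.8% of all genes. Nkg7 differed by -0.97 ± 0.35 (adjusted p = 0.105) and Cd3d by -0.83 ± 0.36 (adjusted p = 0.192). Both values rest on the GFP-minus CD103 macrophage arrays that selected these genes, and support nothing. Nkg7 was under the threshold without replicate 1 of that group (-1.20), and Cd3d without replicate 2 (-1.06). Gzma differed by -0.36 ± 0.29 (adjusted p = 0.559; 0.13 after quantile normalization) and Gzmb by -0.03 ± 0.41 (adjusted p = 0.982; 0.04 after quantile normalization). For both granzymes this mean joins one high and one low GFP gate in DCs with one high and one low macrophage population. The members' median was -0.36, beside -0.03 over all genes, and no member's groups were free of overlap, where 2.82% of genes were.

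The GFP comparison in CD11b macrophages rests on arrays other than those that brought members onto the list. In limma 0 of 9 members passed, where 0.0271% of all genes passed. At an unadjusted p under 0.05 the count was also 0, beside 6.16% of all genes. These counts do not show that no member differed. With adjustment the count was 0 in all 12 alternative settings, the fit to the compared arrays alone among them. Differences of GFP-plus minus GFP-minus ran from -0.79 ± 0.65 for Klrd1 to 0.43 ± 0.47 for Gzma (95% interval -0.58 to 1.43; -0.22 after quantile normalization), with adjusted p from 0.888 to 0.996. The groups did not overlap for Gzma, higher in GFP-plus, or for Cd3g, lower in GFP-plus by 0.31, which makes 2 of 9 where 15.9% of all genes had groups without overlap. The members' median was -0.08, beside 0.01 over all genes. Cd7 differed by -0.40 ± 0.56, a size set by replicate 1 of the GFP-minus group at 1.09.

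**Figure D3:**
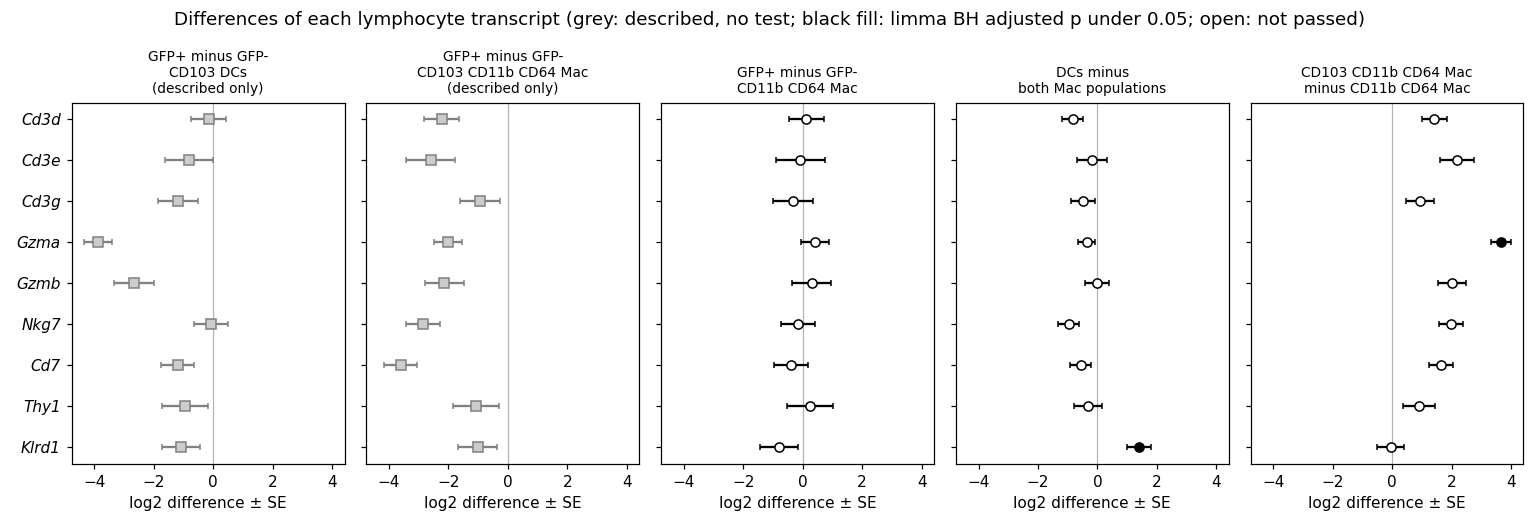
Log2 difference with its standard error for each of the 9 members (rows) in the 5 comparisons (panels). Grey squares are the GFP differences that brought members onto the list and carry no test; black-filled circles passed limma at an adjusted p under 0.05, as Gzma did between macrophage populations, and open circles did not.

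In DCs the GFP-plus minus GFP-minus differences were below 0 for all 9 members, and they are a description because the list drew on them. Gzma differed by -3.87 ± 0.47 and Gzmb by -2.66 ± 0.66. For 3 members all GFP-plus arrays lay below all GFP-minus arrays (Gzma, Gzmb and Cd3g), where 11.5% of all genes did. Cd7, Cd3g, Klrd1, Thy1 and Cd3e lay between -1.19 and -0.81. Cd3d differed by -0.15 ± 0.58 and Nkg7 by -0.08 ± 0.57, the latter 0.03 after quantile normalization and 0.19 without GFP-plus replicate 1. Because Gzma was selected on this contrast, its adjusted p under 0.05, as 1 of 9 members beside 1.58% of all genes, is not a test and nothing is read from it. After quantile normalization Gzma stood at -2.86, and no member was under 0.05.

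In CD103 macrophages the same description applies, again with all 9 members below 0. Cd7 differed by -3.61 ± 0.56. Nkg7 differed by -2.87 ± 0.57, Cd3e by -2.60 ± 0.82, Cd3d by -2.23 ± 0.58, Gzmb by -2.14 ± 0.66 and Gzma by -2.02 ± 0.47. Klrd1, Thy1 and Cd3g lay between -1.07 and -0.94, and Thy1 and Cd3g stood at 0.08 and 0.22 without replicate 3 of the GFP-minus group. Cd7, Nkg7 and Gzma had groups without overlap, where 5.44% of all genes were wholly lower in GFP-plus cells. Cd7, selected on this contrast, was the 1 of 9 members with an adjusted p under 0.05, beside 0.0541% of all genes, and nothing is read from that. It was not under 0.05 without GFP-minus replicate 2 or without any one of the GFP-plus replicates.

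The DC and CD103 macrophage patterns weighted the members differently. The granzymes led in DCs, with Nkg7 and Cd3d near 0, whereas Cd7 and Nkg7 led in CD103 macrophages. Whether the GFP differences themselves differed between these populations was not tested for any member.

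Other genes of lymphocytes were taken from lists of T cell signalling, T cell surface proteins, cytotoxic granules, natural killer receptors, transcription factors and cytokines; 77 of 91 such genes had a probe of their own. Of the receptor complex outside the members, 0 of 5 listed genes were measured, Cd247 and the constant regions of the receptor chains among them. Between the macrophage populations their median difference was 0.05, with 42 above 0, and 0 passed in limma. At an unadjusted p under 0.05 there were 15 (19.5%), beside 5.51% of all genes. The lists were chosen with earlier results of these data known. This comparison also uses the GFP-minus CD103 macrophage arrays that selected Cd7, Nkg7 and Cd3d, so the share supports nothing. The genes closest to passing were Ccl5, a chemokine of cytotoxic T cells, at 1.70 ± 0.34 (adjusted p = 0.121) and Ctsw, a protease gene of cytotoxic lymphocytes, at 1.16 ± 0.28 (adjusted p = 0.283). Cd244a came next and was lower in CD103 macrophages, at -1.98 ± 0.52 (adjusted p = 0.367). Of the 15, Cd244a, Cd6, Fyn and Ccr9 were lower in CD103 macrophages and the others higher.

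For the GFP comparison in CD103 macrophages the median over the 77 genes was -0.10, with 46 below 0, none passed, and 12 (15.6%) had an unadjusted p under 0.05, beside 9.2% of all genes. For the reasons given above, that share supports nothing either. Of these 12, Ccr9 (0.62) and Rora (1.00) were higher in GFP-plus cells and the others lower. The closest were Cd8b1, the CD8 beta chain of cytotoxic T cells, at -1.23 ± 0.25 (adjusted p = 0.104) and Ctsw at -1.76 ± 0.39 (adjusted p = 0.127). Ctsw read 2.13, 1.06 and 2.65 on the GFP-minus arrays and at most 0.71 on the GFP-plus arrays. Cd8b1 read 0.55, 1.68 and 1.37 on the GFP-minus arrays and at most 0.22 on the GFP-plus arrays. Ctsw and Cd8b1 thus had no overlap between these groups. On single arrays of GFP-minus CD103 macrophages, 7, 7 and 18 of the 77 genes read above 1 on replicates 1, 2 and 3, beside 3.21%, 2.6% and 2.64% of all genes. On GFP-plus CD103 macrophage arrays 1, 2 and 2 did, beside 2.39%, 2.57% and 3.38%. GFP-minus DC arrays had 4, 10 and 12, beside 3.22%, 4.65% and 4.77%. GFP-plus DCs had 5, 4 and 6, GFP-minus CD11b macrophages 5, 3 and 5, and GFP-plus CD11b macrophages 2, 3 and 3, beside 2.21% to 3.23%. These counts also hold genes that phagocytes express, such as Cd8a and Cd4. On GFP-minus DC replicate 1 the 4 genes were Klrk1 (2.65), Cd8a (2.57), Ctla4 (1.80) and Serpinb9 (1.76). On GFP-minus CD103 macrophage replicate 1 the 7 were Ctsw (2.13), Lat (1.66), Gzmk (1.47), Hcst (1.41), Cd4 (1.22), Cd8a (1.09) and Serpinb9 (1.06). On the GFP-minus CD103 macrophage arrays Ltb, a cytokine gene of lymphocytes, read 0.53, 2.46 and 3.99. Icos, a costimulatory receptor gene of T cells, read 0.66, 0.87 and 2.05 there. Sh2d1a, an adaptor gene of T and natural killer cells, read 0.22, 0.23 and 3.32. Il2rb (2.01) and Fasl (2.02) were also above 1 on replicate 3. Other T cell genes stayed near their median: Zap70, the kinase that follows Lck, lay between -0.27 and 0.38 over all 18 arrays, and Cd5 and Cd2, surface proteins of T cells, between -0.73 and 0.29 and between -0.17 and 0.48. Prf1, the gene of perforin, lay between -0.99 and 1.01 and read -0.99, 0.19 and -0.82 on the GFP-minus CD103 macrophage arrays. Ltb, Icos, Sh2d1a, Il2rb, Fasl, Zap70, Cd5, Cd2 and Prf1 were chosen after their values were seen, and whether their probes respond to their transcript cannot be read from centred values.

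In DCs the GFP median over the 77 genes was -0.11, with 48 below 0, and 2 (2.6%) passed, beside 1.58% of all genes. Xcl1, a chemokine gene of cytotoxic lymphocytes, fell by 1.76 ± 0.41 on the log2 scale in GFP-plus cells (limma adjusted p = 0.0494). Lamp1, a lysosomal membrane gene that macrophages and DCs also express, rose by 1.18 ± 0.22 (adjusted p = 0.0204). Xcl1 lay only just under the threshold of 0.05. The number of list genes that passed was 1 with quantile normalization and 1 without the 4 arrays of lowest weight. It was 2 with a replicate block and 3 with array weights. In CD11b macrophages the median was -0.07, 0 of 77 passed and 1 (1.3%) had an unadjusted p under 0.05, beside 6.16% of all genes. That gene was Cd4, which intestinal macrophages also express, at 2.52 ± 0.69 (adjusted p = 0.474). Between DCs and macrophages 5 of the 77 rose and 13 fell, beside 3.14% and 6.91% of all genes. Higher in DCs were Serpinb9 (2.71), Cd8a (2.66), Ctla4 (2.38), Fyn (1.59) and Klrk1, a natural killer receptor gene (2.30). Lower were Cd4 (-2.87), Lcp2, Rasgrp1, Cd6, Cd244a, Ctsc, Lamp1, Klrb1b, Hcst, Tyrobp, Fcer1g, Rora and Ccl4. Among all of these, phagocytes themselves express at least Cd8a, Cd4, Tyrobp, Fcer1g, Ctsc and Lamp1, and the other genes were not judged in this respect.

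The members rose and fell together only in part. Over 18 arrays, which share their groups, the 36 pairs of members had Pearson's r from -0.00 to 0.92 with a median of 0.68. With the group means removed the median was 0.48 and the range -0.63 to 0.85. Gzma and Gzmb gave 0.92, and 0.82 with group means removed. Cd3g and Thy1 gave the 0.85. The lowest value, -0.63, was that of Cd3d and Nkg7, whose order over the 3 GFP-minus CD103 macrophage arrays was opposed on replicates 1 and 2. Without replicate 3 of that group the median over pairs of all arrays was 0.45.

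The genes most like the mean of the members over the 18 arrays were Ctsw (Pearson's r = 0.94), Rnf125 (0.91), Ikzf3 (0.90), Gimap6 (0.88), Dnal4 (0.85), Gimap1 (0.83), Gimap5 (0.83), 4930447M23Rik (0.82), Olfr1535 (0.81) and Tmem170 (0.81). Ikzf3 encodes a lymphocyte transcription factor and the Gimap genes encode GTPases of lymphocytes. Replicate 3 of GFP-minus CD103 macrophages, with the highest member mean (3.88), weighs on these values, and r without it was not computed. Ikzf3 read 2.04 there and at most 0.75 elsewhere, and Dnal4 1.60 and at most 0.53. Ctsw (2.65 there, up to 2.13 elsewhere) and Rnf125 (3.23, up to 2.84) were also high on other arrays. For single members the most alike genes were Cd96 for Cd3g (0.94), Gimap7 for Nkg7 (0.93), Ctsw for Cd3e (0.93), Gm8702 for Klrd1 (0.89), Gzmb's nearest Rnf125 (0.88), Il2rb for Thy1 (0.88), Gimap1 for Cd7 (0.87), Rnf125 for Gzma (0.86) and Edc3 for Cd3d (0.84). Cd96, a receptor of T and natural killer cells, read 2.81 on replicate 3 of GFP-minus CD103 macrophages and at most 0.83 on the other arrays. Ifng, the gene of interferon gamma, read 3.29 on that replicate, beside -0.04 and 0.17 on replicates 1 and 2. Of the 3 genes nearest to Nkg7, Gimap7 (3.26) and Ikzf3 (2.04) were also highest on replicate 3, and Cd8b1 was highest on replicate 2 at 1.68.

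**Figure D4:**
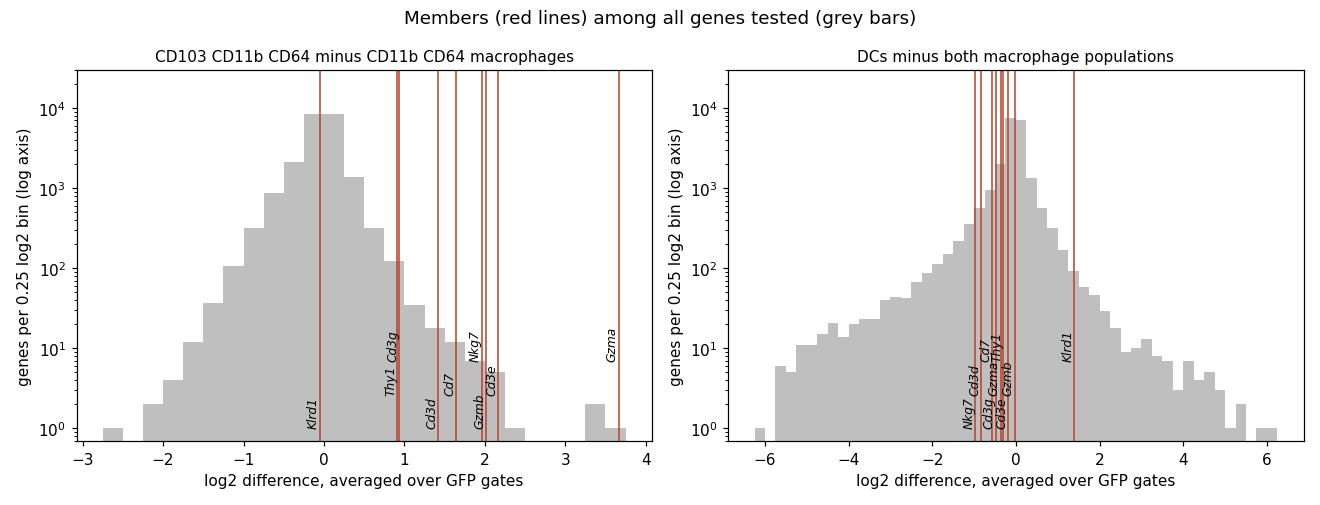
Distribution over all 22180 genes of the log2 difference (horizontal axis) and the number of genes (vertical axis, log scale) for CD103 minus CD11b macrophages (left) and DCs minus both macrophage populations (right), averaged over the GFP gates; red lines mark the 9 members. Gzma lies beyond every other gene on the left, at 3.67, and on the right Klrd1 is the 1 member above 0, at 1.40, although quantile normalization also puts Gzma and Gzmb above 0.

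Markers of other cells moved with some of these groups, and their part in the results was not tested. The mean over 7 monocyte genes was 0.63 to 1.16 in GFP-minus and -0.48 to 0.03 in GFP-plus CD103 macrophages. It ran the same way in CD11b macrophages, from 0.48 to 1.16 against -0.73 to -0.28, where no member passed. The mean over 11 DC genes was -0.48 to 0.57 in GFP-minus and -1.25 to -0.42 in GFP-plus CD103 macrophages, and that over 12 macrophage genes was 0.06 to 0.57 and 0.61 to 0.90. The 11 B and plasma cell genes averaged 0.21 to 0.43 and -0.43 to 0.42. In DCs, 14 enterocyte genes averaged -0.10 to 0.11 on GFP-minus and 0.38 to 0.60 on GFP-plus arrays. There the 11 B and plasma cell genes averaged -0.21 to -0.07 and -0.60 to -0.57, with 9 lower and 2 higher in GFP-plus cells. Of these, Ighm passed in limma as lower in GFP-plus DCs (adjusted p = 0.0387). Ighm read 1.49, 2.21 and 2.59 on GFP-minus and 0.31, -0.08 and 0.07 on GFP-plus DC arrays. Jchain differed by -1.34 ± 0.53 (adjusted p = 0.241), also without overlap. The monocyte genes averaged -0.19 to 0.33 on GFP-minus and -1.0 to -0.49 on GFP-plus DC arrays, with Ccr2 at -2.13 ± 0.57 (adjusted p = 0.0813), Plac8 at -1.92 ± 0.49 (adjusted p = 0.072) and Ly6c2 at -1.82 ± 0.58 (adjusted p = 0.139). The macrophage genes averaged -3.92 to -3.16 and -4.31 to -3.99, and among them C1qa fell by 1.53 ± 0.35 (adjusted p = 0.0452) and Lyz2 by 0.92 ± 0.20 (adjusted p = 0.0378). Which markers were at background cannot be read from centred values. In limma, 12 of 12 macrophage genes were lower in DCs than in macrophages, beside 6.91% of all genes. Of the DC genes 9 of 11 were higher there, beside 3.14% of all genes. The other 2 DC genes, Zbtb46 (0.67) and Batf3 (0.74), lay above 0 without passing. These lists hold genes of the gate markers, Fcgr1 for CD64, Itgae for CD103 and Cd24a for CD24, so the sort fixed part of both counts.

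Array quality also differed. The 4 arrays of lowest weight in limma were GFP-plus CD103 macrophage replicate 1 (0.35), GFP-plus DC replicate 1 (0.41), GFP-minus CD103 macrophage replicate 2 (0.44) and GFP-minus CD11b macrophage replicate 1 (0.51). Interquartile ranges were 0.39 to 0.58 on GFP-plus and 0.28 to 0.38 on GFP-minus DC arrays. Without these 4 arrays Gzma was still higher in CD103 than in CD11b macrophages, Cd3d passed beside it (1.98, adjusted p = 0.0477), and Klrd1 no longer passed in DCs.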

How the data were processed

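Expression was measured on 18 arrays, 3 for each of 6 groups given by the labels. Amplification started from 1 ng of RNA (NuGEN WT Ovation Pico), per the labels' protocols. The deposited values are log2, each probe centred on its own median over the 18 arrays; the base was inferred from the values, and for the authors' software, summarisation and normalization nothing is given in the sources used here. Probes with 1 symbol in the supplied annotation (23521 of 33793; 1814 had several, 8458 none) were averaged per gene, giving 22180 genes. limma 3.58.1 in R 4.3.3 fitted 1 mean per group to all arrays (12 residual and 2.089 prior degrees of freedom), two-sided, with Benjamini-Hochberg adjustment over all genes at 0.05; it was tested on simulated data. SE is from the fit. The members and lists were chosen with earlier results of these data known. Genes named are all members, up to 4 genes of smallest p per list described, list genes that passed, the sort markers, and the genes most correlated with the members' mean (10) and with each member (up to 3); exceptions are said to be such. Same-numbered replicates deviated together weakly at the median (45 pairs, r from -0.17 to 0.34, median 0.06). Between macrophage groups, however, replicate 3 gave only positive r, from 0.14 to 0.34. Differently numbered pairs were not computed, so a factor shared by replicate number cannot be judged. The main fit does not pair samples by number. Alternatives were quantile normalization, array weights, a replicate block, fits to the compared arrays, each array left out and, chosen after seeing the data, the 4 arrays of lowest weight left out. Sequences are RefSeq's, GRCm38.p6. With 3 arrays per group, their number limits the precision.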

Additional observations from a re-analysis of the deposited data

Results flagged for a closer look

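The estimated Gzma difference did not have the same sign in all populations, although its sign in CD11b macrophages was not established. GFP-plus minus GFP-minus was -3.87 in DCs, the contrast that selected Gzma, and -2.02 in CD103 macrophages. In both, every GFP-plus array lay below every GFP-minus array, as for 11.5% and 5.44% of all genes. In CD11b macrophages the difference was 0.43 ± 0.47 (95% interval -0.58 to 1.43), and -0.22 after quantile normalization. Every GFP-plus array lay above every GFP-minus array there, where 15.9% of all genes had groups without overlap in either direction. The difference between these effects was not tested.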

How the results depend on the processing

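Of 693 values of single genes under alternatives, 627 kept direction and side of the threshold, 22 were lost, 13 were gained and 31 changed sign. With quantile normalization 0 members passed for GFP in DCs (Nkg7 0.030), 1 list gene passed there and 1 between the macrophage populations, where Klrd1 stood at 0.18; Gzma (-0.22) and Gzmb (-0.11) turned for GFP in CD11b macrophages, and Gzma (0.13) and Gzmb (0.042) between DCs and macrophages. With array weights 2 members passed for GFP in CD103 macrophages (median -1.46), 0 between DCs and macrophages, and 1 list gene each for GFP in both macrophage populations and between them. The replicate block gave 2 members for GFP in DCs and 2 between DCs and macrophages. Whether the replicate numbers pair the samples is not known. Fits to the compared arrays alone gave 2 members for GFP in DCs and 0 in CD103 macrophages; DCs against macrophages uses all arrays, so this alternative is the same fit. Without the 4 arrays of lowest weight, 1 list gene passed for GFP in DCs (Nkg7 0.19) and 1 in CD11b macrophages (Cd3e 0.069), and 2 members between macrophage populations (Klrd1 0.096). The cause was not tested. Leaving out single arrays gave, for members passing, 0 to 2 for GFP in CD103 macrophages, 0 to 1 between DCs and macrophages, 1 to 2 between macrophage populations, and 1 and 0 in every case for GFP in DCs and in CD11b macrophages. The differences that turned ran from -1.24 to 0.036 (Cd3e) and -0.24 to 0.19 (Nkg7) for GFP in DCs, -1.55 to 0.22 (Cd3g) and -1.96 to 0.079 (Thy1) for GFP in CD103 macrophages, -0.011 to 0.27 (Cd3d), -0.18 to 0.069 (Cd3e), -0.14 to 0.44 (Thy1) and -0.41 to 0.11 (Nkg7) for GFP in CD11b macrophages, -0.60 to 0.055 (Cd3e) and -0.19 to 0.22 (Gzmb) between DCs and macrophages, and -0.42 to 0.26 (Klrd1) between macrophage populations.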
